A study of Homo sapiens with 8 samples.

Results

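HEXIM1 and GTF2B are genes of transcription control by RNA polymerase II. Of 16098 probe sets that carry 1 gene symbol in the platform annotation, 3 belong to this pair: 2 are named HEXIM1 (16834921 and 16845850) and 1 is named GTF2B (16689275). The pair was chosen by its log2 values in the 4 groups of the experiment, so these values are given below as a description, without a test, and all 3 probe sets passed the filter on dim probe sets (log2 above 4 in both arrays of at least 1 group). The study measured total RNA on Affymetrix whole-transcript arrays in a pair of human cell lines, LX2, a hepatic stellate cell line, and HepG2, a hepatocellular carcinoma line. Each line was treated for 48 h with 400 nM CM272, which inhibits G9a, a histone methyltransferase, and DNMT1, a DNA methyltransferase, or with vehicle alone (0.1% DMSO). Each of these 4 groups (LX2 control and LX2 CM272, then the same pair in HepG2) was measured on 2 arrays, so that n is 2 for every group mean. LX2 was kept in 2% and HepG2 in 10% serum during treatment, and line and serum therefore cannot be told apart. Both groups of a line come from 1 established line, and the labels do not state separate cultures for the arrays of a group, so p-values measure the spread between these samples only, which may be technical. In such bulk RNA, fewer cells of a type and less RNA per cell cannot be told apart.

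Before a gene is copied, general transcription factors gather at its promoter. TFIIB, the product of GTF2B, binds the complex of TATA-binding protein and DNA, draws in RNA polymerase II and helps to set the start site. Soon after the start the polymerase pauses, and the kinase P-TEFb, made of CDK9 and a cyclin T, releases it into elongation. HEXIM1, named for its induction by hexamethylene bisacetamide, binds the small nuclear RNA 7SK and together with it holds P-TEFb inactive.

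The promoters of the pair are shown because both transcripts were higher in the same group of arrays, LX2 CM272. Each sequence is the 250 bases before the annotated start in RefSeq (GRCh38.p14), read 5′ to 3′ on the gene's strand, with the letters TATAAA in capitals. The HEXIM1 sequence lies at chr17:45148225-45148474 on the plus strand and the GTF2B sequence at chr1:88891568-88891817 on the minus strand.
HEXIM1: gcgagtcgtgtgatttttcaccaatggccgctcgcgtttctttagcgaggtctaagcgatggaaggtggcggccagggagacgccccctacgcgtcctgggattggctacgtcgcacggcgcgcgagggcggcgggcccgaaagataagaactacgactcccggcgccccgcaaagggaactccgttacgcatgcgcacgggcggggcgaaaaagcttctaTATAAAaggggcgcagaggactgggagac
GTF2B: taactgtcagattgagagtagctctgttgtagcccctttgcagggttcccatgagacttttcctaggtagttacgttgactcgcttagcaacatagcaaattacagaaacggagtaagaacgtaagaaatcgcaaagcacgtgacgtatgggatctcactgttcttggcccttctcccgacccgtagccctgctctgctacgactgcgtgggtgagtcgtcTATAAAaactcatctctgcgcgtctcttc
The core letters of a TATA box stood 29 to 24 bases before the start in both genes. TATAAA, searched on both strands, was present in 10.7% of 35116 promoter windows of this length. The windows differed in other letters. HEXIM1 held 31 CpG dinucleotides, more than 89.1% of all windows, and GTF2B held 14, more than 55.2% of them, against a median of 11 CpG. HEXIM1 had 2 matches to CCAAT (found in 32% of windows), 2 to the GC box core GGGCGG (42.6%) and 1 to GCATGCGC, a core of NRF1 sites (2.63%), and GTF2B had none of these. GTF2B had 1 match to the E-box CACGTG (6.34%), which HEXIM1 lacked, and neither window held TGACTCA, the AP-1 site (4.2%). The motifs were searched on both strands and were chosen after the sequences had been seen. A match is a description of letters, and no binding or methylation was measured here. Neither window of HEXIM2, the paralogue of HEXIM1, held TATAAA.

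Across the whole series, array medians lay between 4.19 and 4.54 log2, and the median absolute difference between replicates was 0.12 to 0.15 log2 in 3 groups and 0.26 in LX2 CM272. The labels were checked against cell type markers. Of 13 measured hepatocyte markers 13 exceeded log2 4 in HepG2 control and 4 in LX2 control. Of 8 measured stellate cell markers 6 did so in LX2 control and 4 in HepG2 control, while the defining genes DCN (2.05) and LUM (2.88) did not in LX2 control. The mean level of the 5 measured endothelial markers was 4.10 to 4.12 in LX2 control and 4.33 to 4.60 in LX2 CM272, and that of 4 leukocyte markers 5.78 to 5.86 and 5.82 to 6.21. Those of hepatocyte markers were 3.61 to 3.63 and 3.74 to 3.795, and those of stellate markers 5.29 to 5.38 and 5.40 to 5.46. Except for the leukocyte markers, whose ranges overlapped, the list means were thus higher in both LX2 CM272 arrays. Single stellate markers went both ways between the LX2 group means. VIM (10.19 to 9.76), TAGLN (6.40 to 6.01), THY1 (5.81 to 5.64), LRAT and DCN were lower with CM272. DES (5.58 to 6.83), NGFR (5.73 to 6.22) and LUM were higher. In HepG2 the leukocyte mean was 7.23 to 7.29 in control and 7.30 to 7.50 with CM272. The part of these markers in the results on HEXIM1 and GTF2B was not tested.

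HEXIM1 was higher in LX2 with CM272 and not in HepG2. On the brighter probe set (16834921) its log2 level was 7.19 and 7.16 in LX2 control and 8.69 and 8.90 in LX2 CM272. In HepG2 it was 7.50 and 7.57 in control and 7.46 and 7.55 with CM272. Both treated LX2 arrays lay above every other array, while the HepG2 arrays with and without CM272 overlapped. The group means were 7.17 ± 0.02, 8.79 ± 0.15, 7.54 ± 0.05 and 7.51 ± 0.07 (SD, n = 2 each), in the order LX2 without and with CM272, then HepG2 without and with it. The difference in LX2 was 1.62 on the log2 scale (SE 0.14), or 3.07-fold, and in HepG2 it was -0.03 (SE 0.14). The difference of the CM272 effect, HepG2 minus LX2, was -1.65 (SE 0.20). With either LX2 CM272 array left out, the HEXIM1 difference in LX2 was 1.51 or 1.72.

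GTF2B showed the same order of treated over untreated LX2 arrays and a larger difference. Its log2 level was 6.999 and 7.10 in LX2 control and 9.34 and 10.05 in LX2 CM272. In HepG2 it was 7.14 and 7.002 in control and 6.87 and 6.98 with CM272. The treated LX2 arrays again stood above all others, and they differed more from each other than the replicates of any other group did for this gene. The group means were 7.05 ± 0.07, 9.69 ± 0.50, 7.07 ± 0.10 and 6.93 ± 0.08 (SD, n = 2 each), in the same order of groups. The difference in LX2 was 2.64 (SE 0.21), or 6.25-fold, the 11th highest of 12239 tested genes, among which HEXIM1 took place 35. The pair was chosen by these values, so both places are a description only. In HepG2 the GTF2B difference was -0.15 (SE 0.21), smaller than this SE, although both treated arrays lay below both control arrays. The SE pools the spread of all 4 groups, LX2 CM272 among them, and was 0.12 with HepG2 fitted alone. The difference of effects, HepG2 minus LX2, was -2.79 (SE 0.30). Without LX2 CM272 replicate 1 the LX2 difference was 2.999, and without replicate 2 it was 2.29.

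Of all tested genes 3.79% were called higher and 4.63% lower in LX2 with CM272 (limma, Benjamini-Hochberg adjusted p under 0.05). In 23.5% both treated LX2 arrays lay above both control arrays, as they did for both members, and in 28.6% below. At an unadjusted p under 0.05 limma gave 1282 higher and 1816 lower genes in LX2. In HepG2 0 genes were called higher and 1 lower (0.00817%; limma, while at an unadjusted p under 0.05 there were 583 higher and 820 lower). In 28.2% both treated HepG2 arrays lay below both control arrays, as for GTF2B, and in 20.7% above. The values that chose the pair come from these same contrasts, so nothing is read from the shares.

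**Figure D1:**
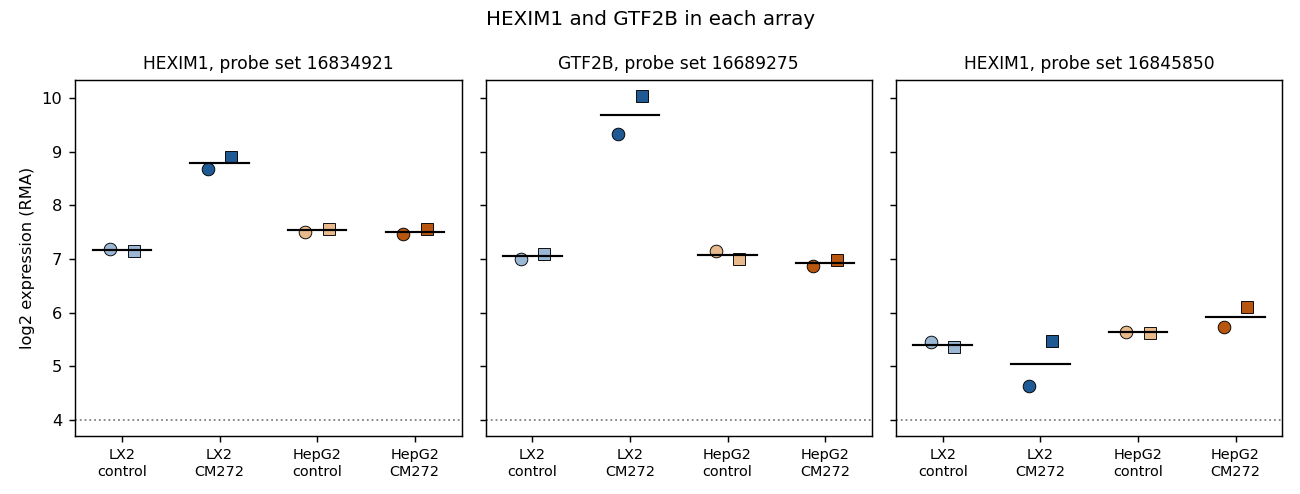
Log2 expression of the 3 probe sets in each of the 8 arrays, by group; circles are replicate 1, squares replicate 2, horizontal bars group means, and the dotted line the brightness filter at log2 4. HEXIM1 (16834921) and GTF2B reach 8.69 to 8.90 and 9.34 to 10.05 in LX2 CM272, above all other arrays, whereas the dimmer HEXIM1 probe set reaches 4.62 and 5.46 there.

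The second HEXIM1 probe set did not follow the first. Probe set 16845850 gave 5.44 and 5.35 in LX2 control and 4.62 and 5.46 in LX2 CM272, so that the LX2 groups overlapped. Its level was 5.64 and 5.63 in HepG2 control and 5.73 and 6.10 in HepG2 CM272. The differences were -0.36 (SE 0.25) in LX2 and 0.28 (SE 0.25) in HepG2, opposite in sign to those of the brighter probe set in each line. Averaging both probe sets lowered the LX2 difference of HEXIM1 to 0.63 (SE 0.18). Strand and exact target of either probe set were not used here. The HEXIM1 values above rest on 1 probe set.

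Between the untreated lines HEXIM1 was higher in HepG2, GTF2B differed by less than its SE, and both differences moved with the scaling. In order of level, HEXIM1 ran from LX2 control through HepG2 CM272 and HepG2 control to LX2 CM272, and both HepG2 groups were indistinguishable within their spread. HEXIM1 was 0.36 (SE 0.14) higher in HepG2 control than in LX2 control, and GTF2B differed by 0.02 (SE 0.21). Over all tested genes the median of this difference was -0.27, and 58.1% of genes were called (17.7% higher and 40.5% lower in HepG2). The split of these calls moved with the scaling, from 2161 higher and 4952 lower to 3165 and 3602 with quantile normalization and to 3616 and 3249 with centred arrays. Both HepG2 control arrays lay above both LX2 control arrays in 27.6% of genes, as for HEXIM1, and below in 55.8%. With each array centred on its median the differences became 0.70 for HEXIM1 and 0.36 for GTF2B, and with quantile normalization 0.62 and 0.29. GTF2B was lowest in HepG2 CM272, followed by LX2 control, HepG2 control and LX2 CM272. Between the groups other than LX2 CM272 no GTF2B difference exceeded the SE shared by all groups.

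The partners of the pair and other genes were read from 12 lists. The list of short-lived transcripts was drawn up with rises of some of its genes in these data known. Without the members the 12 lists held 198 gene symbols, with some histone genes under old and new names. Of these symbols 108 were present here and 105 were bright enough to test. In LX2 10 of the 105 rose with CM272, 6 of them short-lived transcripts, and 3 fell (limma). The share called was 12.4% against 8.42% of all tested genes, from which nothing is read. The median difference of the 105 was -0.05 against -0.02 over all genes. The count of called list genes fell without any 1 control array of either line and rose without LX2 CM272 replicate 2. The count over all tested genes moved the same way in each of these fits. In HepG2 0 of the 105 were called in limma (1 higher and 15 lower at unadjusted p under 0.05), with a median difference of -0.10 against -0.02. Of all 12239 tested genes 583 were higher and 820 lower in HepG2 at that unadjusted threshold. The LX2 and HepG2 treatment differences share no array, but 1 fit over all 8 arrays gave the spread used for both. For the difference of effects between the lines 0 of the 105 were called higher and 5 lower, and between the untreated lines 13 were higher and 38 lower in HepG2, 48.6% of the list against 58.1% of all tested genes. That split turned to 23 higher and 18 lower with quantile normalization and to 31 higher and 16 lower with centred arrays.

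Among the genes of 7SK and P-TEFb, MEPCE rose in LX2. MEPCE, the enzyme that caps 7SK RNA, had log2 levels of 8.72 and 8.52 in control and 9.69 and 9.30 with CM272, so the LX2 groups did not overlap. Its LX2 difference was 0.87 (SE 0.17, adjusted p = 0.0176), against 0.09 (SE 0.17, adjusted p = 0.895) in HepG2, and the difference between the lines did not pass (adjusted p = 0.132). The other 6 of 7 tested genes of this list did not pass in LX2. CDK9, the P-TEFb kinase, differed by 0.05 (SE 0.13) in LX2 and -0.24 (SE 0.13) in HepG2. Cyclin T1, from CCNT1, differed by 0.24 (SE 0.16) and -0.41 (SE 0.16), and cyclin T2, from CCNT2, by -0.25 (SE 0.16) and -0.14 (SE 0.16), in the same order of lines. LARP7, which protects 7SK, and 7SK itself were not analysed here. The MEPCE call was lost without LX2 control replicate 1 (adjusted p = 0.0948) or replicate 2 (0.162), with array weights (0.0504) and with LX2 fitted alone (0.0762). Without LX2 CM272 replicate 2 other genes of the list were called lower beside it, as were more genes over the whole series.

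HEXIM2, which can take the place of HEXIM1 on 7SK, did not pass in either treatment comparison. Its log2 level was 4.79 and 4.64 in LX2 control and 4.87 and 5.11 in LX2 CM272. In HepG2 it was 5.90 and 5.93 in control and 6.19 and 6.32 with CM272. Treated arrays lay above untreated ones in both lines, but the differences were small, 0.27 (SE 0.15, adjusted p = 0.281) in LX2 and 0.34 (SE 0.15, adjusted p = 0.412) in HepG2. Between the untreated lines HEXIM2 was 1.19 (SE 0.15, adjusted p = 7.30e-05) higher in HepG2. Its dimmer probe set (16845853) differed by 0.17 between the untreated lines, with overlapping arrays, and the mean of both probe sets by 0.68 (adjusted p = 0.0034). With CM272 that probe set differed by 0.19 in LX2 and 0.68 in HepG2.

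**Figure D2:**
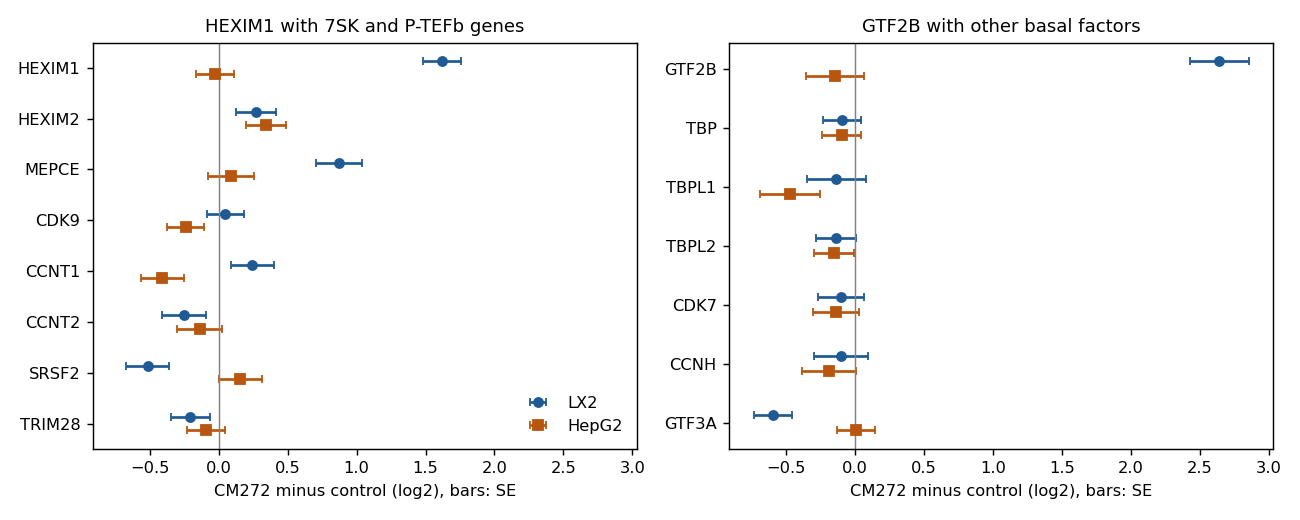
Difference of CM272 minus control on the log2 scale with its SE for HEXIM1 and the 7 tested 7SK and P-TEFb genes (left) and for GTF2B, the 5 other tested general factors and GTF3A (right), in LX2 (circles) and HepG2 (squares). HEXIM1 at 1.62 and GTF2B at 2.64 stand apart in LX2, where MEPCE at 0.87 is the highest partner. The pair was chosen by its values in these groups, so its place is a description only.

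Genes that act with P-TEFb in elongation moved singly. ELL, a subunit of the super elongation complex, was 6.33 and 6.57 in LX2 control and 7.20 and 6.95 in LX2 CM272. In HepG2 it was 6.48 and 6.46 in control and 5.48 and 5.71 with CM272. ELL thus rose in LX2 by 0.62 (SE 0.16, adjusted p = 0.0426), 1 of 4 tested members of that complex, and stood at -0.87 (SE 0.16, adjusted p = 0.22) in HepG2. The effects of CM272 on ELL differed between the lines by -1.495 (SE 0.22, adjusted p = 0.0194), where 1.18% of all genes were called (0.825% with a lower effect in HepG2). EAF2, an ELL-associated factor, was at 1.05 (SE 0.29, adjusted p = 0.0548) in LX2 and 0.07 in HepG2, and it passed in LX2 in 4 of 17 alternative settings. Of 9 pausing and elongation factors SUPT4H1, a subunit of the pausing factor DSIF, rose by 0.51 (SE 0.13, adjusted p = 0.0445) in LX2, and none passed in HepG2 (0 in limma, 0 at an unadjusted p under 0.05). The LX2 calls of ELL and SUPT4H1 were lost without any 1 array other than LX2 CM272 replicate 2, with adjusted p from 0.0587 to 0.267 for ELL and from 0.0609 to 0.237 for SUPT4H1. They were also lost with no filter (0.0611 and 0.0642), array weights (0.126 and 0.128) and each line fitted alone (0.126 and 0.143). The ELL difference between lines was lost without any 1 control or HepG2 CM272 array (adjusted p from 0.057 to 0.118).

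No transcription kinase or cyclin passed in either line with all arrays. Of 14 tested genes 0 were called in LX2 and 0 in HepG2 (limma), with 2 lower at an unadjusted p under 0.05 in each. Over all 12239 tested genes 1816 were lower in LX2 and 820 in HepG2 at that threshold. The largest differences were those of CCNL1, cyclin L1, at -0.67 (SE 0.28, adjusted p = 0.169) in LX2 and of CDK8, the kinase of the Mediator module, at -0.49 (SE 0.18, adjusted p = 0.356) in HepG2. Without LX2 CM272 replicate 2 some of these genes passed as lower in LX2, as more genes did over the whole series. CCNL1 was then at -1.20, CDK8 at -0.72 and CCNT2 at -0.45, and without replicate 1 CCNL1 was at -0.14.

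The general factors measured beside GTF2B did not share its difference in LX2. TBP, the TATA-binding protein that TFIIB contacts, was 8.92 and 8.79 in LX2 control and 8.66 and 8.87 in LX2 CM272. Its HepG2 levels were 8.40 and 8.33 in control and 8.25 and 8.28 with CM272. The TBP difference was -0.09 (SE 0.14, adjusted p = 0.728) in LX2 and -0.10 (SE 0.14, adjusted p = 0.853) in HepG2. Of 5 general factors tested beside GTF2B 0 were called in either line (limma, 0 at an unadjusted p under 0.05), with differences in LX2 from -0.14 to -0.09. They were TBP, the TBP relatives TBPL1 and TBPL2, and CDK7 and CCNH, the kinase and cyclin of TFIIH. A list of TFIIB relatives and of factors of RNA polymerase III held 11 genes beside GTF2B, of which 1, GTF3A, was measured. GTF3A, the factor that starts 5S ribosomal RNA synthesis, fell in LX2 by 0.60 (SE 0.14, adjusted p = 0.031). That call was lost without any 1 array other than LX2 CM272 replicate 2 (adjusted p from 0.0528 to 0.211) and with quantile normalization (0.0512), array weights (0.0978) and each line fitted alone (0.107). The TFIIB relatives BRF1 and BRF2, the TFIIF genes GTF2F1 and GTF2F2 and the 18 listed TFIID subunits were not analysed here.

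Calls among RNA polymerase II and Mediator genes are given beside the 8.42% of all tested genes called in LX2, and nothing is read from their number. Of 12 tested genes of the polymerase and its assembly 0 were called in LX2 (limma, 1 higher at unadjusted p under 0.05) and 0 in HepG2 (1 lower). Over all 12239 tested genes 1282 were higher in LX2 and 820 lower in HepG2 at that unadjusted threshold. The list's largest difference in LX2 was that of RPAP1, an assembly factor, at 0.45 (SE 0.16, adjusted p = 0.119), and in HepG2 that of GPN3 at -0.61 (SE 0.17, adjusted p = 0.277). Without LX2 CM272 replicate 2, RPAP1 (0.58, adjusted p = 0.0474) and RPAP2 (-0.64, 0.0222) passed in LX2. Of 27 Mediator genes, which link activators to the polymerase, MED29 rose by 0.92 (SE 0.14, adjusted p = 0.0068) and MED14 fell by 0.70 (SE 0.16, adjusted p = 0.0285) in LX2. MED29 had log2 levels of 7.80 and 7.58 in LX2 control, 8.57 and 8.64 in LX2 CM272, 7.51 and 7.49 in HepG2 control and 7.35 and 7.37 in HepG2 CM272. The CM272 effect on MED29 differed between the lines by -1.05 (SE 0.19, adjusted p = 0.039). The MED29 rise was lost without LX2 control replicate 2 (adjusted p = 0.0981) and with LX2 fitted alone (0.0501). Its difference between lines was lost without any 1 control or HepG2 CM272 array (0.101 to 0.205), with no filter (0.062) and with array weights (0.0574). The MED14 fall was lost without either control array of either line or LX2 CM272 replicate 1 (0.0525 to 0.217), with array weights (0.0784) and with LX2 fitted alone (0.102). More Mediator genes were called without LX2 CM272 replicate 2, as were more genes over the whole series, so nothing is read from that rise.

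**Figure D3:**
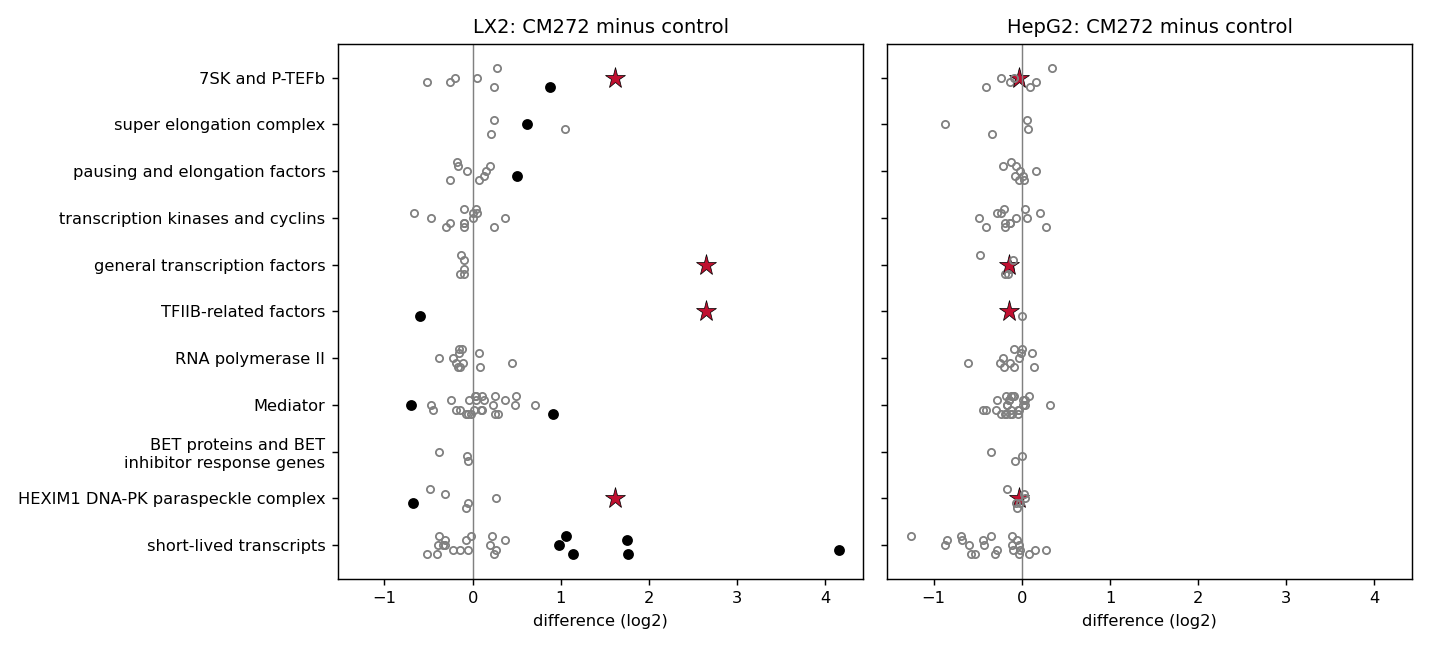
Difference of CM272 minus control on the log2 scale for every tested gene of 11 lists in LX2 (left) and HepG2 (right); stars are HEXIM1 and GTF2B, filled circles genes past the adjusted threshold, open circles the others. HEXIM1 and GTF2B exceed all other tested genes of their own lists in LX2, and no gene is filled in HepG2. The pair was chosen by these values, so its place is a description only. The twelfth list, TFIID, was not analysed here.

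HEXIM1 also takes part in a complex with DNA-dependent protein kinase and paraspeckle proteins that senses foreign DNA. Of 6 measured partners in this complex, MATR3, an RNA-binding protein of the nuclear matrix, fell in LX2 by 0.67 (SE 0.13, adjusted p = 0.0194), from 8.57 and 8.60 to 7.83 and 7.99, without overlap. The splicing factor SFPQ was at -0.49 (SE 0.14, adjusted p = 0.0666) and passed in 3 of 17 alternative settings, and XRCC5 and XRCC6, the Ku subunits, at -0.08 and -0.05. In HepG2 0 of the 6 were called (limma, 0 at an unadjusted p under 0.05). The MATR3 call was lost without LX2 control replicate 1 (adjusted p = 0.127) or replicate 2 (0.157), with array weights (0.0608) and with LX2 fitted alone (0.0896). More genes of this list were called lower without LX2 CM272 replicate 2, as were more genes over the whole series.

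HEXIM1 is also used as a readout of BET bromodomain inhibitors, which raise it. The list of BET genes and other genes known to respond to these inhibitors held 12 symbols, with some histone genes under old and new names. Of these symbols 3 could be tested, and 0 were called in either line (limma, 1 lower at an unadjusted p under 0.05 in each). Over all 12239 tested genes 1816 were lower in LX2 and 820 in HepG2 at that unadjusted threshold. BRD2 differed by -0.05 (SE 0.13) in LX2 and -0.08 (SE 0.13) in HepG2, and BRD3 by -0.06 (SE 0.17) and 0.00 (SE 0.17). MYC, which BET inhibitors lower, differed by -0.38 (SE 0.14, adjusted p = 0.131) in LX2 and -0.35 (SE 0.14, adjusted p = 0.388) in HepG2.

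Short-lived transcripts depend closely on P-TEFb, and some of them rose in LX2 with CM272. A link of these rises to HEXIM1 was not tested. Of 23 tested genes 6 rose in LX2, where 3.79% of all genes did, and 0 fell, with a list median of -0.01 against -0.02 over all genes. The count of rises was 2 without LX2 control replicate 2, and 4 with array weights, with LX2 fitted alone or without LX2 CM272 replicate 1. In that last case 2 genes fell. FOSB, an AP-1 subunit, rose by 4.16 (SE 0.15, adjusted p = 7.39e-07), ATF3, a stress-induced factor, by 1.76 (SE 0.21, adjusted p = 0.0032), EGR1, an immediate-early zinc finger factor, by 1.75 (SE 0.23, adjusted p = 0.0048) and FOS by 1.14 (SE 0.16, adjusted p = 0.0054). Second probe sets differed by 0.88 for FOSB, 0.77 for EGR1 and 0.34 for FOS in LX2. In HepG2 0 of 23 were called (limma, 0 higher and 10 lower at unadjusted p under 0.05). Of all 12239 tested genes 583 were higher and 820 lower at that unadjusted threshold. The HepG2 median of the list was -0.31 against -0.02, with KLF10 at -1.26 (SE 0.23, adjusted p = 0.22). EGR3 (1.06) and JUNB (0.98), named after their values were seen, were the other two, and they were called in 12 and 8 of 17 alternative settings. The EGR1 and FOS rises were lost without LX2 control replicate 2 (adjusted p = 0.071 and 0.0856). Earlier results of these data, among them the rises of FOSB and ATF3, were known when the list was drawn up. Nothing is therefore read from the 6 rises of 23 against 3.79%.

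None of the tested genes near HEXIM1 and GTF2B on the chromosomes was called higher with CM272. The 3 nearest genes on each side that carry a symbol on the array were taken in RefSeq order, so that genes without one here can lie between them, and the order says nothing of distance. Around HEXIM1 these were KIF18B, DCAKD and NMT1 on one side and HEXIM2, FMNL1 and MAP3K14-AS1 on the other. DCAKD was 8.63 and 8.66 in LX2 control and 7.95 and 7.66 in LX2 CM272, a fall of 0.84 (SE 0.15, adjusted p = 0.015), opposite to HEXIM1. The other 5 neighbours of HEXIM1 lay between -0.28 and 0.27 in LX2, and none passed. The DCAKD call was lost without LX2 control replicate 1 (adjusted p = 0.11) or replicate 2 (0.135) and with LX2 fitted alone (0.0711). Around GTF2B the measured genes were LMO4, LINC01364 and PKN2 on one side and GBP3, GBP4 and GBP5, interferon-inducible GTPases, on the other. PKN2, a protein kinase, was at -0.53 (SE 0.18, adjusted p = 0.105) in LX2, LMO4 at -0.42 (SE 0.16, adjusted p = 0.135), GBP3 at -0.03 and GBP4 at 0.10. Without LX2 CM272 replicate 2, PKN2 passed as lower (-0.80, adjusted p = 0.0097). LINC01364, with means of 2.30 in LX2 control and 2.98 in LX2 CM272, and GBP5 were too dim to test. In HepG2 none of the 10 tested neighbours passed (0 in limma), and their differences lay between -0.31 and 0.34.

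**Figure D4:**
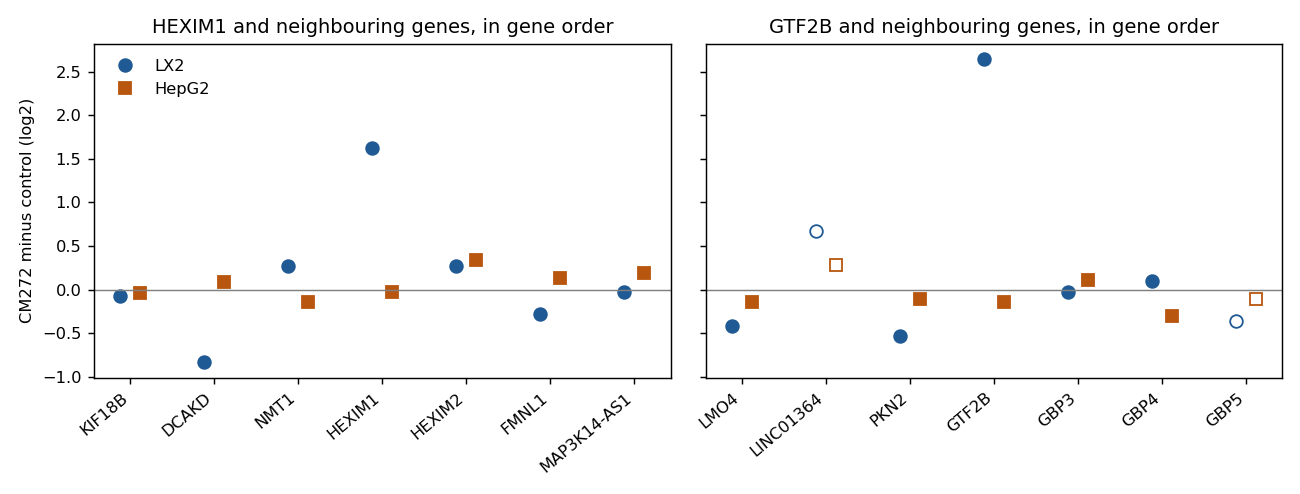
Difference of CM272 minus control (log2, difference of group means) for HEXIM1 and GTF2B and the 3 nearest measured genes on each side in gene order, in LX2 (circles) and HepG2 (squares); open symbols mark genes too dim to test. In LX2 HEXIM1 at 1.62 and GTF2B at 2.64, chosen by their values in these groups, stand above their neighbours, and DCAKD lies at -0.84.

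The genes whose pattern was most like that of each member were found by Pearson's r of log2 values over the 8 arrays, among genes whose range was at least 50% of the member's range. For HEXIM1 the 5 highest of 7715 candidates were DKK2, a Wnt antagonist (r = 0.991), ZNF280A, a zinc finger gene (0.988), GLRX, glutaredoxin (0.987), SLC7A11-AS1 (0.985) and HES7, a transcriptional repressor (0.980). For GTF2B the 5 highest of 3121 candidates were LINC00161 (0.991), SLC7A11-AS1 (0.989), TEX14, a germ cell protein (0.986), HECTD2-AS1 (0.984) and FOSB (0.982). SLC7A11-AS1, an antisense transcript at the cystine transporter gene, stood in both sets. Its log2 level was 3.59 and 3.52 in LX2 control and 5.26 and 5.87 in LX2 CM272, and between 3.68 and 3.92 in HepG2. The LX2 differences of these genes ran from 0.75 (SE 0.14) for HES7 to 5.37 (SE 0.23) for TEX14, and their HepG2 differences from -0.31 to 0.09. The arrays fall into clusters by group, with LX2 CM272 apart, so these r values describe mainly that step. Over the 6 arrays outside LX2 CM272, r was 0.74 to 0.90 for the HEXIM1 set and 0.21 to 0.53 for the GTF2B set. Both sets were picked by r over all 8 arrays, these 6 included, so these values are no separate sign of likeness. Control means under the filter of log2 4, as for DKK2 (3.21), SLC7A11-AS1 (3.55), LINC00161 (3.41), TEX14 (3.90) and HECTD2-AS1 (3.76), make the size of those differences inexact. These dim genes passed the filter only through the LX2 CM272 arrays, so the filter itself favoured such a pattern.

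**Figure D5:**
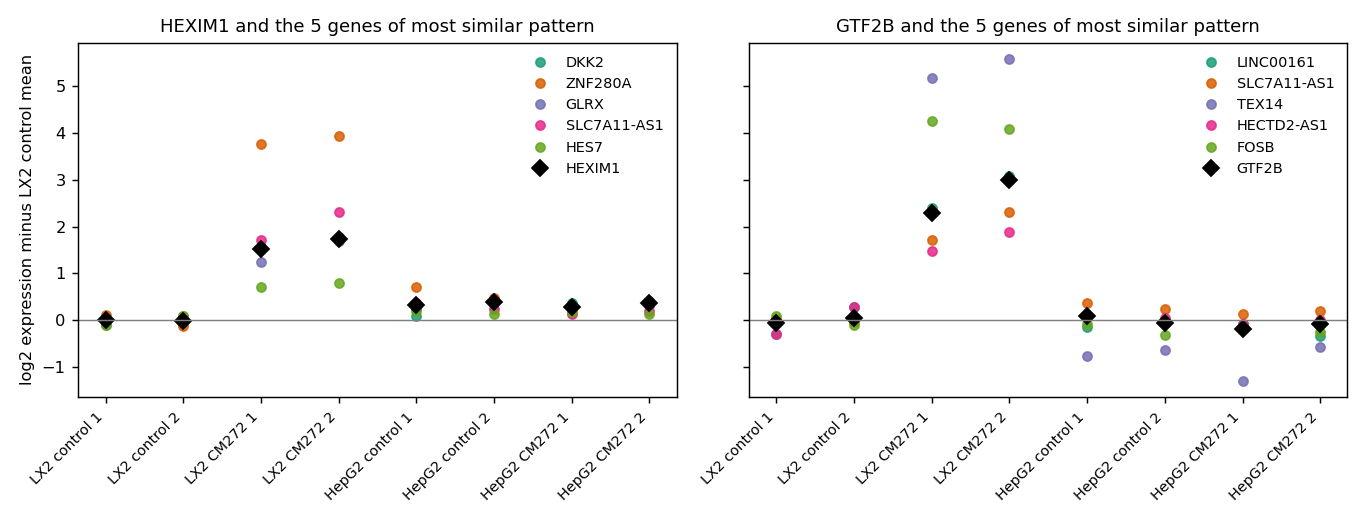
Log2 expression minus the mean of LX2 control in each of the 8 arrays for HEXIM1 (left, diamonds) and GTF2B (right, diamonds) and the 5 genes of most similar pattern (circles). All plotted genes are highest in the LX2 CM272 arrays, where TEX14 rises by 5.37 and HES7 by 0.75 on average.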

How the data were processed

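Each array was hybridised with 300 ng of total RNA, after cells had been seeded at 200000 per well. The deposited table holds log2 expression values per probe set, which the authors background-corrected, normalized and summarised with RMA, per the submitters' processing notes (version and genome build not given in the sources used here). RMA brings arrays towards a like distribution, which can remove part of a change shared by most genes, but the deposited array medians still differed between the lines (4.19 to 4.54). Differences of dim genes are compressed. Of 48416 probe sets 16098 had 1 symbol and 0 had several. All 16098 matched a RefSeq gene record. A symbol with several probe sets was represented by the brightest one on average (14884 symbols), and 12239 genes over log2 4 in both arrays of at least 1 group were tested. One fit of limma 3.58.1 (R 4.3.3; 4 groups, 4 residual and 5.47 prior degrees of freedom, two-sided, Benjamini-Hochberg over all tested genes, threshold 0.05) gave the differences and SEs of all comparisons, and it was tested on simulated data. With 2 arrays a group the smallest p of an exact permutation test is 0.333. Figures were drawn with matplotlib 3.10.9.

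The members and gene lists were chosen with earlier results of these data known. Named genes were both members, their listed partners, up to 4 called genes per list and comparison (or 2 with the largest difference where none was called), the 3 nearest measured genes on each side and the 5 most correlated genes. The closing section gives the effect of 17 alternative settings, which changed the filter, scaling, weights, prior, probe set choice or fit, or left out 1 array. Equal replicate numbers were checked for pairing and treated as unpaired.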

Additional observations from a re-analysis of the deposited data

Results flagged for a closer look

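The list of short-lived transcripts was drawn up with the rises of FOSB and ATF3 in these data known, and FOSB was also picked for its likeness to GTF2B. Nothing is therefore read from the p-values of that list's genes here. The effect of CM272 on FOSB differed between the lines by -4.18 (HepG2 minus LX2, SE 0.21, limma adjusted p = 2.45e-05), with both treated arrays above both controls in LX2 only. For EGR1 this difference was -2.59 (SE 0.33, adjusted p = 0.0087), lost without LX2 control replicate 1 or 2 (0.0634 and 0.0758). For ATF3 it was -2.35 (SE 0.30, adjusted p = 0.0091), lost without LX2 control replicate 2 (0.0625) or HepG2 CM272 replicate 2 (0.0565). For ELL, the elongation factor, it was -1.495 (SE 0.22, adjusted p = 0.0194), and for MED29, a Mediator subunit, -1.05 (SE 0.19, adjusted p = 0.039). Both were lost without any 1 control or HepG2 CM272 array (0.057 to 0.118 and 0.101 to 0.205). Over all genes 1.18% differed between the lines. GTF2B was higher in both treated LX2 arrays and lower in both treated HepG2 arrays than the mean of the respective control, with a difference of -2.79 (SE 0.30), which was not tested.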

How the results depend on the processing

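Under 17 alternative settings (16 where both lines were needed) HEXIM1 and GTF2B stayed higher with CM272 in LX2, with differences of 0.63 to 1.72 and 2.29 to 2.999. Quantile normalization gave 1.71 in LX2 and 0.04 in HepG2 for HEXIM1, and 0.62 (HEXIM1) and 0.29 (GTF2B) for HepG2 against LX2 control. Centring each array on its median gave 0.70 and 0.36 for that comparison, in which these settings shifted the median gene by 0.26 and 0.34 log2. The mean of both HEXIM1 probe sets gave 0.63 in LX2, 0.13 in HepG2 and -0.51 for HepG2 minus LX2. With 1 array left out, HEXIM1 ranged from 1.51 to 1.72 in LX2, from -0.08 to 0.02 in HepG2 and from -1.75 to -1.54 for the difference of effects, and GTF2B from 2.29 to 2.999, from -0.22 to -0.08 and from -3.14 to -2.43. Between control groups these ranges were 0.33 to 0.40 for HEXIM1 and -0.05 to 0.09 for GTF2B.

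The count of called genes in LX2 (1031) was 283 with array weights and 198 with each line fitted alone, and 56 to 2493 with 1 array left out. In HepG2 (1) it was 2 with no filter, 4 with the filter at log2 6, 5 with array weights, 4 with a trended robust prior, 0 with each line fitted alone, 6 with the replicate block and 0 to 1 with 1 array left out (limma; unadjusted p under 0.05 with all arrays for 583 higher and 820 lower genes). For the difference between lines (145) it was 79 with no filter, 371 with the filter at log2 6, 286 with a trended robust prior, 71 with the replicate block and 19 to 961 with 1 array left out. Of listed genes, 13 were called in LX2, 5 with array weights, 4 with each line alone and 2 to 29 with 1 array left out. For the difference between lines 5 were called, 3 with the replicate block and 1 to 14 with 1 array left out, and between control groups 51 and 31 to 60. Among the 172 results on named genes, 143 of 2804 values lost and 31 gained a call, and 0 called genes changed direction.

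The replicate numbers did not pair the arrays: deviations of same-numbered arrays correlated at 0.08 in LX2 and 0.07 in HepG2 across genes. With the replicate block 807 genes and 9 listed genes were called in LX2, against 1031 and 13. Under this block the LX2 calls of ELL (adjusted p = 0.072), SUPT4H1 (0.071), GTF3A (0.0518) and JUNB, and the differences between lines of ELL (0.0532) and MED29 (0.0772) did not pass. The number of arrays limits the precision of every value.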
